A study of Homo sapiens with 3 samples.

Results

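miR-221 and miR-222 are a pair of microRNAs (miRs) that are often raised in liver cancer. Their members were taken as every row of the table of raw counts whose name is an arm of miR-221 or miR-222, which gave 4 of 512 rows, hsa-miR-221-3p, hsa-miR-222-3p, hsa-miR-221-5p and hsa-miR-222-5p. Of these, 3 had at least 1 count and 2, the 3p arms, had at least 30 counts in sum, the minimum for a test between batches that 64 rows passed. The data were small RNA libraries from 3 batches of extracellular vesicles (EVs), membrane-enclosed particles released into the medium by HepG2, an established human line from a liver tumor. HepG2 cells, labelled as wildtype hepatocytes, were grown with 10% fetal bovine serum, washed, and kept in serum-free medium for 48 h before EVs were spun down at 100000 × g for 70 min, and all 3 batches were handled in this way. There was 1 condition and 1 library per batch, so the batches could be compared only with each other, and nothing states whether they came from separate cultures. Batches 1, 2 and 3 held 8704, 10834 and 7933 miR counts, by which the counts of a miR were divided to give its share. Of the 5 listed hepatocyte miRs 4 were in the table, all with counts, and their summed share was 16.2% ± 0.428 (SD, n = 3 batches). Most of it was hsa-miR-148a-3p with 11.4%, while hsa-miR-122-5p, the most specific of them, had 1.67% and hsa-miR-194-5p had 0.0609%. The arms of miR-483, which mark fetal liver and liver tumors, held 8.59% ± 0.187 (SD, n = 3 batches).

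A miR is cut from a hairpin precursor as a duplex of a 5p and a 3p arm, and usually 1 arm is kept by the Argonaute protein while the other is lost. The kept arm finds messenger RNAs mainly through its seed, bases 2 to 8, which pairs with sites in the 3' untranslated region (UTR) and lowers the output of the message. miR-221-3p and miR-222-3p are best known for acting on CDKN1B, an inhibitor of cyclin-dependent kinases that holds cells back from dividing. Apart from liver tumors, they are abundant in endothelial and smooth muscle cells and are raised in activated hepatic stellate cells, the cells that lay down collagen in fibrosis.

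The mature sequences are shown to make clear what the members share and where their reads can be told apart, with the seed in capitals, 5' to 3'. They are from RefSeq on GRCh38.p14, where 3 of the 4 members had an entry.
hsa-miR-221-3p: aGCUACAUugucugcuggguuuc
hsa-miR-222-3p: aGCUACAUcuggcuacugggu
hsa-miR-222-5p: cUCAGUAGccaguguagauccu
The 3p arms have 23 and 21 bases and the same first 8 bases, so they carry 1 seed, GCUACAU, and first differ at position 9. In a global alignment of 24 columns, 18 held the same base in both. A read that runs past the seed can therefore be assigned to 1 of the 3p arms. The 5p arm of miR-222 has another seed, UCAGUAG. Of the 451 names in the table with a RefSeq sequence, none besides the pair carried the seed GCUACAU. Among 239 seeds with a count in these 451 names, GCUACAU stood at place 27 with 114 counts.

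The precursors are shown with the 3p arm in capitals, since the arm is the unit that was counted. On GRCh38.p14, MIR221 lies at chrX:45746157-45746266 and MIR222 at chrX:45747015-45747124, both on the minus strand.
MIR221: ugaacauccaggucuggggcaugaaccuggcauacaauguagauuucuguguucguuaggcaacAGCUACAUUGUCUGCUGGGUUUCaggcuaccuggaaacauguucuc
MIR222: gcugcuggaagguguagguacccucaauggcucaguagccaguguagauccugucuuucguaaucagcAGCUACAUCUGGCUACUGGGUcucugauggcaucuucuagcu
Both hairpins have 110 bases, and 748 bases lie between them. GENCODE 29 places both in the intron of the long transcript of MIR222HG, a noncoding host gene with 2 exons in this transcript, which runs from 45745211 to 45770274 on the same strand.

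In HepG2 EVs, hsa-miR-221-3p had 38, 20 and 18 counts in batches 1, 2 and 3. These were 0.437% (95% Wilson interval 0.318% to 0.599%), 0.185% (0.120% to 0.285%) and 0.227% (0.144% to 0.358%) of the miR counts. The mean share was 0.283% ± 0.135 (SD, n = 3 batches). The share was highest in batch 1, whose interval lay above that of batch 2 and overlapped that of batch 3. By mean raw count hsa-miR-221-3p stood at place 38 of 512, outside the 30 most abundant miRs, which are those the study displayed. Its place within batches 1, 2 and 3 was 31, 48 and 40. Its neighbors in the order were hsa-miR-186-5p (0.307% ± 0.0628, SD) and hsa-miR-197-3p (0.282% ± 0.0653) above and hsa-miR-17-5p (0.264% ± 0.0660) and hsa-miR-455-5p (0.267% ± 0.0476) below (n = 3 each). Each of these means lay within 1 SD of that of hsa-miR-221-3p, so the order among them was not resolved.

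hsa-miR-222-3p had 21, 12 and 5 counts, or 0.241% (95% Wilson interval 0.158% to 0.369%), 0.111% (0.0634% to 0.194%) and 0.0630% (0.0269% to 0.147%) of the miR counts in batches 1, 2 and 3. The mean share was 0.138% ± 0.0923 (SD, n = 3 batches). Batch 1 was again highest, and its interval lay above that of batch 3 and overlapped that of batch 2. hsa-miR-222-3p stood at place 60 by mean raw count, and at places 49, 56 and 74 within the batches. Its neighbors hsa-miR-425-5p (0.150% ± 0.0905), hsa-miR-125a-5p (0.145% ± 0.0740), hsa-miR-148a-5p (0.139% ± 0.109) and hsa-miR-320b (0.127% ± 0.0328, SD, n = 3 each) were not separated from it either.

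The 3p arms together held 59, 32 and 23 counts, or 0.678%, 0.295% and 0.290% of the miR counts. The mean was 0.421% ± 0.222 (SD, n = 3 batches), and batches 2 and 3 were nearly equal while batch 1 stood above both. As reads of a PCR library without molecular identifiers are not independent molecules, all intervals and floors given here cover counting error only. Adapter ligation in small RNA libraries depends on the sequence of the insert, so the values are not shares of molecules, nor is the ratio of the members a ratio of molecules.

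**Figure D1:**
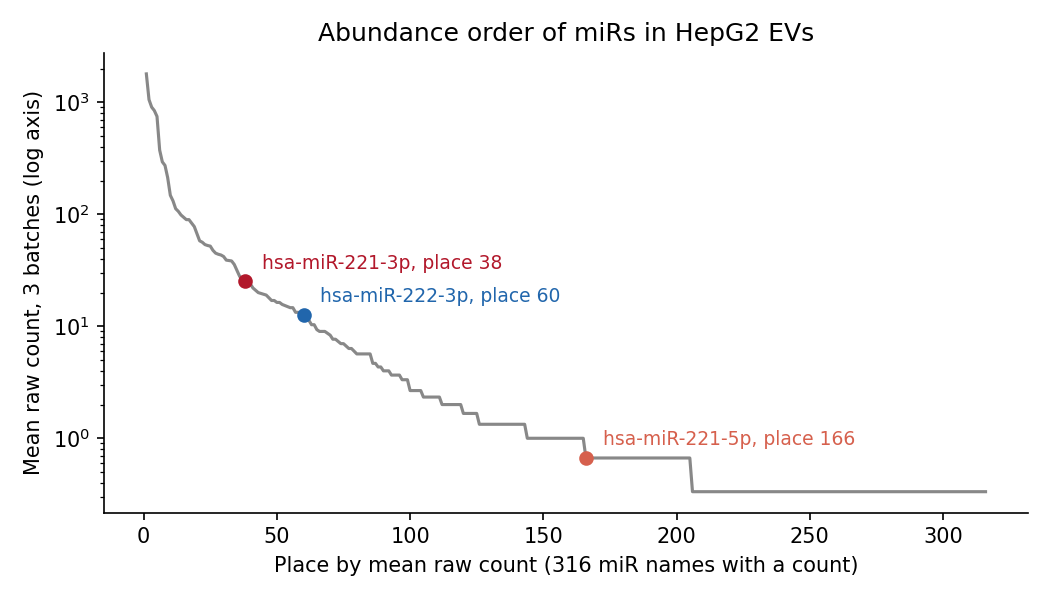
Mean raw count over 3 batches (vertical, log axis) of the 316 miR names with a count, ordered from the most to the least abundant (horizontal), with the members marked. hsa-miR-221-3p sits at place 38, hsa-miR-222-3p at place 60 and hsa-miR-221-5p at place 166, among the names with 2 counts in sum.

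**Figure D2:**
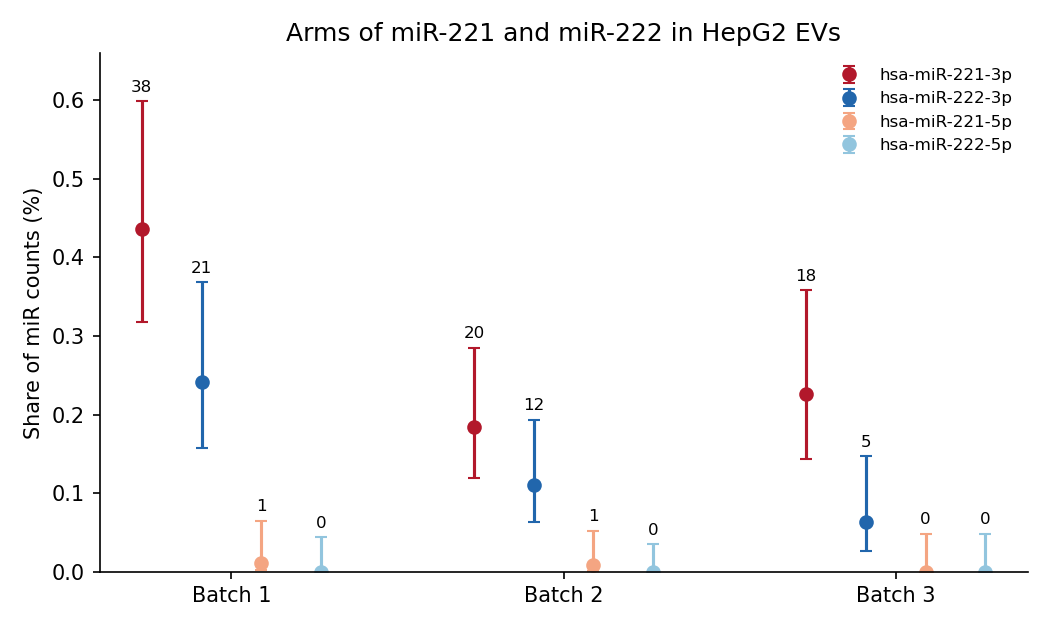
Share of the miR counts in each batch (vertical, in percent) for the 4 arms. Points are shares, bars are 95% Wilson intervals for counting error and the number above each bar is the count. Both 3p arms were highest in batch 1, with 38 and 21 counts, and the 5p arms had at most 1 count in a batch.

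The batches were compared for every miR with at least 30 counts in sum. The exact multinomial test, two-sided, asked whether the 3 counts of a miR departed from the batch totals by more than counting noise, with Benjamini-Hochberg adjustment over all 64 miRs. It compares libraries, not conditions. hsa-miR-221-3p differed between the batches at an adjusted p of 0.0124 (exact multinomial test) and hsa-miR-222-3p at an adjusted p of 0.0217 (exact multinomial test). The test called 25 of 64 miRs, or 39.1%, and 19 of 64, or 29.7%, were called with their highest share in batch 1. Of the calls under batch totals most were thus highest in batch 1, but 8 of 22 calls were so with totals scaled by the trimmed mean of M-values (TMM), 8 of 22 with DESeq2 size factors and 5 of 15 with totals without the 5 most abundant miRs. The calls of the members are not particular to the pair. The libraries themselves differed, with a chi-square from 130 (batches 2 and 3) to 807 (batches 1 and 2) on 63 degrees of freedom, which is more than counting noise alone. This does not show whether they came from separate cultures.

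The share of hsa-miR-221-3p in batch 1 was 2.12-fold its mean share in batches 2 and 3, and that of hsa-miR-222-3p was 2.78-fold. The median of this ratio over the 64 miRs was 1.25, and the members took places 8 and 4 from the highest. Relative to the mean, the shares of hsa-miR-221-3p varied by 47.7% (SD over mean, 3 batches) and those of hsa-miR-222-3p by 66.7%, against a median of 23.1% over the 64 miRs. Part of this is counting noise, which is larger for miRs with few counts. The order of the batches was not the same for both members, as hsa-miR-221-3p was lowest in batch 2 and hsa-miR-222-3p was lowest in batch 3.

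The calls of both members depended on how the batches were scaled. The 5 most abundant miRs of the series took 47.7% of the counts in batch 1 and 63.0% and 63.9% in batches 2 and 3. The TMM scaling factors were 1.23, 0.895 and 0.911 for batches 1, 2 and 3. With TMM-scaled totals the adjusted p of the exact multinomial test was 0.249 for hsa-miR-221-3p and 0.179 for hsa-miR-222-3p, so neither passed. After TMM scaling, with the scaled totals set to the mean batch total, hsa-miR-221-3p had 0.358%, 0.207% and 0.25% and hsa-miR-222-3p had 0.198%, 0.124% and 0.0695%, and batch 1 was still the highest for both. Without batch 1, the adjusted p was 0.886 for hsa-miR-221-3p and 0.880 for hsa-miR-222-3p (exact multinomial test). Without batch 2 the call was lost for hsa-miR-221-3p (adjusted p = 0.0685, exact multinomial test), and without batch 3 for hsa-miR-222-3p (adjusted p = 0.105, exact multinomial test).

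Markers of endothelial and stromal cells, which are rich in the pair, were rare, and none had more than 3 counts in batch 2 or 3. Their summed shares were highest in batch 1, as were the shares of 43 of the 64 tested miRs, so this is not particular to them. The endothelial list held 0.0804%, 0.0185% and 0.0252% of the counts in batches 1, 2 and 3, all of it hsa-miR-126-3p with 7, 2 and 2 counts, and the other of its 2 miRs was at 0. The stromal and smooth muscle list held 0.103%, 0.0369% and 0.0504%, of which 2 of its 4 miRs in the table had a count, hsa-miR-145-5p (7, 3 and 3 counts) and hsa-miR-143-3p (2, 1 and 1 counts). hsa-miR-199a-5p and hsa-miR-214-3p were at 0. The blood cell list had 1 count in all and its defining miRs hsa-miR-451a and hsa-miR-142-3p were at 0, and the muscle list also had 1 count. The part of such cells in the shares of the pair was not tested.

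**Figure D3:**
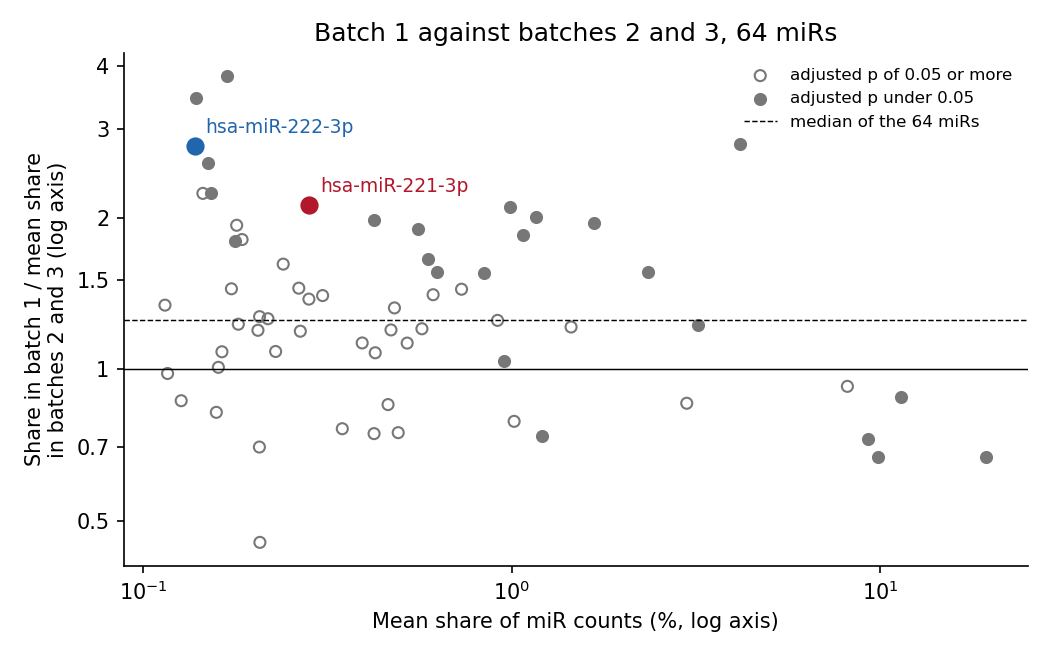
Share in batch 1 divided by the mean share in batches 2 and 3 (vertical, log axis) against the mean share (horizontal, in percent, log axis) for the 64 miRs with at least 30 counts. Filled points had an adjusted p under 0.05, the dashed line is the median of 1.25, and hsa-miR-221-3p at 2.12 and hsa-miR-222-3p at 2.78 lie among the called miRs above it.

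Over the profile of shares across the 3 batches, the miRs closest to hsa-miR-221-3p were hsa-miR-125a-5p, hsa-miR-483-3p and hsa-miR-99b-5p. The profile is each batch's share divided by the sum over the batches, and closeness was measured by Euclidean distance over 3 batches of the same libraries. hsa-miR-221-3p had 51.5%, 21.8% and 26.8% of its profile in batches 1, 2 and 3, and hsa-miR-125a-5p, with 20, 10 and 9 counts, had 52.8%, 21.2% and 26.0%. For hsa-miR-222-3p (58.1%, 26.7% and 15.2%) the closest were hsa-miR-21-5p (58.3%, 19.7% and 22.0%), hsa-miR-99b-5p and hsa-miR-26a-5p. hsa-miR-222-3p was at place 21 in the order of likeness to hsa-miR-221-3p, and hsa-miR-221-3p at place 12 in that of hsa-miR-222-3p, so neither was the closest miR to its partner. With 5 to 38 counts per batch behind the members, this order is a description only.

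Within each batch, hsa-miR-221-3p exceeded hsa-miR-222-3p. Its counts of 38, 20 and 18 stood against 21, 12 and 5, which are ratios of 1.81, 1.67 and 3.60. The log2 ratio, with 0.5 added to both counts, was 0.84, 0.71 and 1.75, with a mean of 1.10 ± 0.57 (SD, n = 3 batches). It was above 0 in 3 of 3 batches, and the exact two-sided sign-flip permutation test had p = 0.25, its lower limit with 3 batches. As a part of the pair's counts, hsa-miR-221-3p had 64.4%, 62.5% and 78.3% in batches 1, 2 and 3. The 95% Clopper-Pearson intervals ran from 50.9% to 76.4%, from 43.7% to 78.9% and from 56.3% to 92.5%. Batch 3 had the highest part, but the intervals overlapped. An exact test with fixed margins found no difference in this split between the batches at these counts (p = 0.421). Over all batches, 76 of 114 counts, or 66.7% (57.2% to 75.2%), were hsa-miR-221-3p.

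The pair was set beside other miRs that lie within 10000 bases of each other on the same strand, each with at least 30 counts. Positions were taken from RefSeq, where 56 of the 64 miRs with this minimum had an entry under their name. This gave 11 pairs, some of which share a miR. Clusters that include a miR without an entry are missing, so the order below covers these 11 pairs only. In the order of the SD of the log2 ratio over the batches, from the steadiest, miR-221-3p with miR-222-3p was at place 10 of 11. The pair hsa-miR-183-5p and hsa-miR-182-5p, with 337 and 282 counts, had the lowest SD, 0.06, around a mean log2 ratio of 0.25. hsa-miR-99b-3p and hsa-miR-125a-5p, with 44 and 39 counts, had the highest of the 11, 0.85. Pairs at either end of the order thus also differed in depth. No difference between the batches was found for any of the 11 splits at these counts. The adjusted p-values ran from 0.757 to 0.926 (exact test with fixed margins), and that of miR-221-3p and miR-222-3p was 0.926. Small differences could be missed at this depth.

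**Figure D4:**
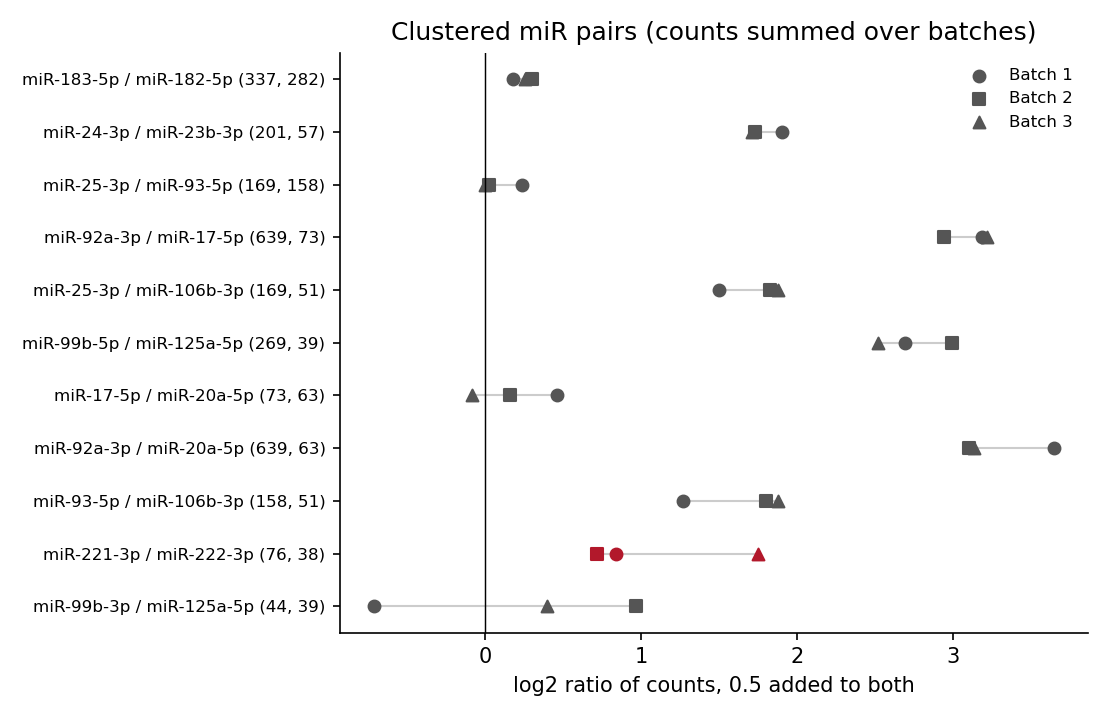
The log2 ratio of counts (horizontal, 0.5 added to both) of 11 pairs of clustered miRs in batches 1, 2 and 3 (symbols), with the counts summed over the batches in parentheses. The ratio of miR-221-3p to miR-222-3p was above 0 in each batch, with 0.84, 0.71 and 1.75.

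Both precursors gave almost only the 3p arm. hsa-miR-221-5p had 1, 1 and 0 counts in batches 1, 2 and 3, and hsa-miR-222-5p had none. A single count lies below the floor of 3 counts, which is 0.0345%, 0.0277% and 0.0378% of the batch totals, so neither 5p arm reached the floor in any batch. Summed over the batches, 2 of 78 counts of miR-221, or 2.56% (95% Clopper-Pearson interval 0.312% to 8.96%), were on the 5p arm. The 3p arm had 38.0 times the counts of the 5p arm, with a counting interval of 10.2 to 319. For miR-222 the 5p part was 0 of 38 counts, which allows up to 7.89% (3 counts of 38). The 3p arm had 12.7 times this floor of 3 counts over the batches. The two-sided Clopper-Pearson limit, the kind given for miR-221, was wider, at 9.25%. By that limit the ratio of 3p to 5p was at least 9.81, close to the 10.2 of miR-221. With 2 counts on the 5p arms in all, Fisher's exact test could not go below p = 0.105, so a difference between the precursors could not be tested. With 0.5 added to both arms, miR-221 had a log2 ratio of arms (3p over 5p) of 4.55 ± 0.73 (SD, n = 3 batches), a value that depends on the added 0.5.

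One-sided use of arms was common in these EVs. Of 39 miR names with both arms listed and at least 30 counts, 16 had no count on the lesser arm, and 30 had under 5% there. The median was 0.252%, and the 2.56% of miR-221 stood at place 27 from the lowest. The 3p arm was the main one for 22 of the 39, as for miR-221 and miR-222, and the 5p arm for 17.

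**Figure D5:**
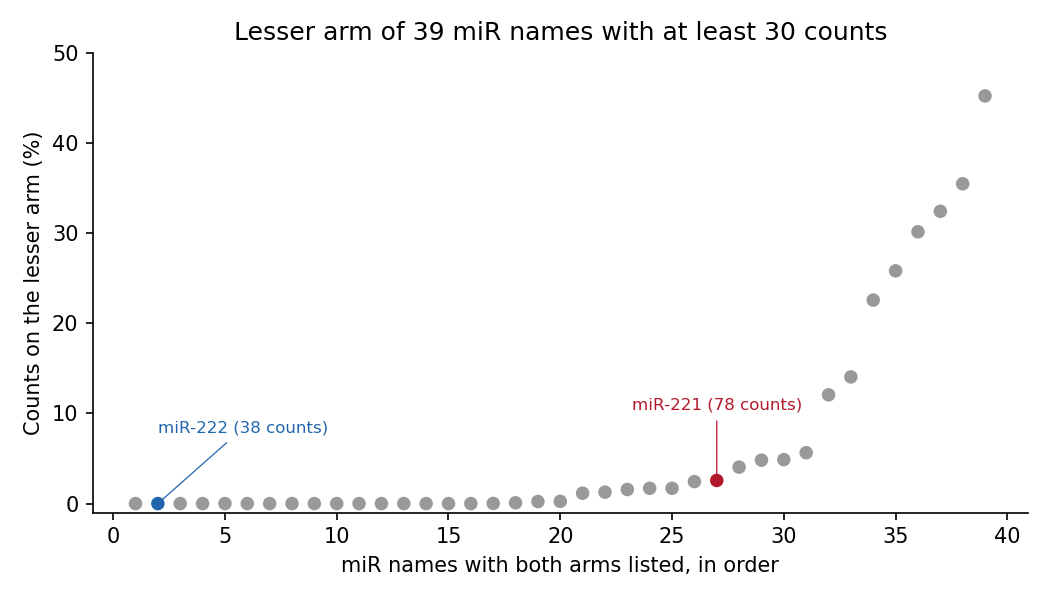
Percent of the counts on the lesser arm (vertical) of 39 miR names with both arms listed and at least 30 counts over the batches, in increasing order (horizontal). miR-222, with 0 of 38 counts, and miR-221, with 2.56% of 78, lie in the flat part of the curve where 30 names have under 5%.

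CDKN1B carries matches to the shared seed, which are shown here since this gene is the best known target of the pair. The heptamer ATGTAGC, the reverse complement of the seed, was searched on the sense strand of the longest annotated 3' UTR of each gene in GENCODE 29 (GRCh38). The 3' UTR of CDKN1B (1344 bases, chromosome 12, plus strand) held 2 matches, at its positions 201 to 207 and 274 to 280. They start 73 bases apart. The 30 bases around each are given with the match in capitals, the first at chr12:12721207-12721236 and the second at chr12:12721280-12721309.
CDKN1B, match at position 201: atctgcctctaaaagcgttggATGTAGCat
CDKN1B, match at position 274: tgtatatagtttttaccttttATGTAGCac
Both are followed by an A, which lies opposite the first base of the miR. Of 19132 genes with a 3' UTR, 1546, or 8.08%, held at least 1 match, and 172, or 0.899%, held 2 or more. Among 2781 UTRs of 80% to 125% of the length of that of CDKN1B, 6.29% held at least 1. A match describes these letters and not a used site, and no messenger RNA was measured here.

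Of the 12 known targets of the pair that are reported here, 8 held a match. CDKN1B, KIT, a receptor tyrosine kinase, CDKN1C, another inhibitor of cyclin-dependent kinases, BBC3 and BMF, which promote cell death, and ESR1, the estrogen receptor, had at least 1 match followed by an A. TIMP3, an inhibitor of metalloproteinases, and ETS1, a transcription factor, had 1 match with another base there. DDIT4, FOXO3, PPP2R2A and ICAM1 had none in these windows. Among UTRs of similar length, 18.4% to 21.8% held a match for ETS1, BMF, TIMP3 and ESR1. For CDKN1C, BBC3, CDKN1B and KIT it was 2.96% to 9.72%. Known targets are often found through such matches, so the count of 8 is not independent evidence. KIT also held 2 matches, at chr4:54739566-54739595 and chr4:54740495-54740524, and that of CDKN1C lay at chr11:2883827-2883856 on the minus strand. They are printed to compare with those of CDKN1B.
KIT, match at position 1030: gccatcttagtttggattcttATGTAGCag
KIT, match at position 1959: gctttttttgtaaatattgaaATGTAGCaa
CDKN1C, match at position 86: gggcctcggctgggaccgttcATGTAGCag

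The study asked which EV miRs may act on genes of fibrosis. For its abundant miRs it used the prediction platform miRWalk, described as searching complete transcripts, and its EVs were given to mice. Here only the seed heptamer was searched, in the longest human 3' UTR of each gene. The counts below are therefore not comparable with the targets predicted in the study. Of 72 collagen, MMP, TIMP and ACTA2 genes, 4, or 5.56%, held a match to the seed of the pair. Over all genes it was 8.08%, a share that was not matched for UTR length. These were COL4A4, a basement membrane collagen, COL6A5, a collagen of microfibrils, MMP1, the interstitial collagenase, and TIMP3. The TIMP3 match lies in a 3' UTR of 3666 bases, and 19.1% of UTRs of similar length held one. ACTA2, which encodes smooth muscle actin, and COL1A1 held none.

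Among miRs raised in liver cancer, the members were in the lower part of those with at least 30 counts, and hsa-miR-222-3p had the lowest share of these. Of 18 listed, 16 had a count and 11 had at least 30, and the median share was 0.247% over all 18 and 0.571% over these 11, beside 0.423% over the 64 miRs with the same minimum. hsa-miR-21-5p led with 4.18% ± 2.72, followed by hsa-miR-92a-3p with 2.34% ± 0.641 (SD, n = 3 batches each). hsa-miR-224-5p, which like the pair lies on the X chromosome, had 0.481% ± 0.0830. hsa-miR-155-5p and hsa-miR-151a-5p were at 0. Of the 11 tested, 5 were called between the batches, the members among them, beside 25 of all 64 miRs (39.1%). Of these 5 calls, 4 were highest in batch 1, beside 19 of the 25 calls (29.7% of the 64). Of the miRs lowered in liver cancer, 13 of 15 were in the table and 8 had a count, with a median mean share of 0.00803%. All 3 that were called, of 5 tested, were highest in batch 1, as were 19 of the 25 calls over all 64 miRs. The summed shares of both lists were highest in batch 1 too, and the raised list contains the pair. By share of the batch totals, 43 of the 64 miRs were highest in batch 1, so this is not particular to the lists or the pair.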

How the data were processed

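HepG2 EV RNA was isolated with a miRNeasy kit, and about 200 ng per batch went into a small RNA library (NEBNext kit) that was run on an Illumina MiniSeq. The authors deposited raw counts per miR and batch, with their mean over the batches as a further column, which was not used. GRCh38 is the build in the submitters' processing notes. The software for alignment and counting is not given in the sources used here.

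Each count was divided by its batch total. With 1 condition, edgeR and DESeq2 had no contrast to fit, and only their scaling factors were used. The exact multinomial test enumerated all outcomes for every miR with at least 30 counts in sum, with Benjamini-Hochberg adjustment over all of them and a threshold of 0.05. It was also run on simulated counts with counting noise and set changes of some miRs in batch 1. These held no other variation between batches. The run therefore does not show how the test behaves where libraries differ by more than counting noise, as they did here. Intervals are Wilson for shares of a batch and Clopper-Pearson for parts of the pair. A count of 0 was given the limit of 3 counts of the total. Totals of 7933 to 10834 counts per batch limit the precision. Sequences are from RefSeq (GRCh38.p14), and UTRs from GENCODE 29.

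The text names the members, the 3 miRs closest to each in profile, neighbors in rank, miRs with the same seed, and fixed lists of miRs and target genes. From the lists and from the genes with a match, the genes named and printed were chosen after their values were seen, as were the comparisons with clustered pairs, with lesser arms and with the other miRs that match CDKN1B. The members and lists were chosen with earlier results of these data known. Alternatives covered the scaling (TMM, DESeq2 size factors, totals without the 5 most abundant miRs), the minimum count (10, or no filter), the added count, the way batches were combined and each batch left out. Python 3.11.15, numpy 2.4.6, scipy 1.17.1, pandas 2.3.3, matplotlib 3.10.9, R 4.3.3, edgeR 4.0.16 and DESeq2 1.42.0 were used. The RT-qPCR and mouse data were not analysed here. One listed target is not reported here.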

Additional observations from a re-analysis of the deposited data

How the results depend on the processing

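No paired analysis was possible because all samples belong to 1 group. The adjusted p between batches (exact multinomial test) was 0.0124 for hsa-miR-221-3p and 0.0217 for hsa-miR-222-3p. It was 0.249 and 0.179 with TMM-scaled totals, 0.188 and 0.160 with DESeq2 size factors, 0.382 and 0.275 once the 5 most abundant miRs were removed from the totals, and 0.0529 and 0.0873 with no filter, where 316 miRs were tested. With a minimum of 10 counts both calls were kept. Leaving out each batch in turn gave adjusted p-values from 0.00704 (without replicate 3) to 0.886 (without replicate 1) for hsa-miR-221-3p and from 0.0185 (without replicate 2) to 0.880 (without replicate 1) for hsa-miR-222-3p. Each left-out batch also removed counts. Other causes of the lost calls were not tested. The miRs called numbered 25, then 15 of 59 with totals without the 5 most abundant miRs, 22 with either scaling, of which 15 each were among the 25, 30 of 99 with a minimum of 10, 18 of 316 with no filter, and from 5 (without replicate 1) to 18 with a batch left out. The summed share of the pair was 0.421%, and 0.966% of totals without the 5 most abundant miRs, which are smaller by construction. It was 0.293% to 0.487% with a batch left out. The log2 ratio of hsa-miR-221-3p to hsa-miR-222-3p stayed within 1 SD under all 5 alternatives, with 0.78 to 1.30, as did that of the arms of miR-221, with 3.98 to 4.95. With 5 to 38 counts of a member per batch, the depth limits all of these.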

Other observations

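The pair was not alone among the miRs in HepG2 EVs in matching the 3' UTR of CDKN1B. Of 64 miRs with at least 30 counts, 56 had a RefSeq sequence, and 6 of these had a seed heptamer match there. The heptamer of the pair was found in 6.29% of UTRs of similar length, and no such rate was obtained for the other seeds. The count of 6 is therefore a description only. hsa-miR-221-3p and hsa-miR-222-3p had 2 matches each, and the other 4 had 1 each. Each of these 4 had a different seed from that of the pair. The mean share was 0.732% ± 0.169 (SD, n = 3 batches) for hsa-miR-24-3p, 0.481% ± 0.0830 for hsa-miR-224-5p, 0.471% ± 0.0631 for hsa-miR-330-3p and 0.240% ± 0.0743 for hsa-miR-200b-3p. The first 3 of these had a higher mean share than hsa-miR-221-3p (0.283% ± 0.135), and all 4 had a higher one than hsa-miR-222-3p (0.138% ± 0.0923). These are values of the EVs, and whether any of these miRs acts on CDKN1B was not measured.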
